A study of Mus musculus with 109 samples.

Results

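The 10 genes described here are those by which the retinal pigment epithelium and its melanin are commonly recognized, namely Rpe65, Rgr, Rrh, Ttr, Best1, Lrat, Rdh5, Tyrp1, Pmel and Mlana, taken by their Ensembl identifiers from the 37315 genes counted. They were followed in all 109 libraries, each made from the polyadenylated RNA of 1 whole mouse retina. The retinas came from 64 mice, aged 2 to 4 months by the series' design text and 2 to 6 months by the methods, and 45 of these mice gave both eyes. Eyes were injected into the vitreous with PBS, with TNF, with IL1A or with IL1A and TNF together, and a PBS eye was often the fellow eye of a cytokine eye of the same mouse. In batch 1, all mice were WT C57BL/6J: at day 2 after injection there were 31 PBS, 8 TNF, 9 IL1A and 10 IL1A+TNF retinas, at day 14 there were 7 PBS retinas (of 6 mice) and 6 TNF retinas, and at day 35 there were 6 PBS and 9 TNF retinas. In batch 2, all retinas were of day 2: 5 WT PBS, 6 WT IL1A+TNF, 6 PBS of Sarm1 deficient mice (Sarm1-/-) and 6 IL1A+TNF of Sarm1-/- mice. SARM1 is an enzyme of axon degeneration, its deficiency in Sarm1-/- mice is not limited to a cell type, and no group was without an injection. IL1A and TNF are cytokines of activated microglia.

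Sarm1 itself lay between 77.5 and 135 CPM (counts scaled to a common library size with TMM) in the 97 WT retinas and between 28.8 and 53.2 CPM in the 12 Sarm1-/- retinas, so the genotype labels held in every retina. Gnat1, which encodes the transducin subunit of rods, lay between 3839 and 12055 CPM, as the label of retina implies. Libraries held between 30014757 and 79064488 counted read pairs, with a median of 39374202. C1qtnf5, a further gene of the pigment epithelium that shares a transcript with Mfrp, was at 0 in every library. Krt12, the keratin of the corneal epithelium, had a median of 0.0577 CPM, and Lim2, a membrane protein of lens fibers, had a median of 0. Other genes of these tissues were far higher in single retinas, Cryaa of the lens up to 3872 CPM and Aldh3a1 of the cornea up to 193 CPM. Summed over the lists used below, lens genes ran from 1.15 to 5891 CPM (median 7.43) and corneal genes from 0.274 to 217 CPM (median 2.13).

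The retinal pigment epithelium is a single layer of pigmented cells behind the photoreceptors. It takes spent all-trans-retinal from rods and cones, esterifies and isomerizes it, and returns 11-cis-retinal, a sequence known as the visual cycle. The same cells hold melanosomes, as do the melanocytes of the choroid and the pigmented cells of the ciliary body and iris. The epithelium and choroid are not a part of the neural retina, and in dissection the retina is lifted off them. In bulk RNA of a retina, fewer cells of a type and less RNA per cell cannot be told apart.

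Among the genes of the visual cycle, Rpe65 (chr3:159599175-159625321, + strand, GRCm38) encodes the isomerase that makes 11-cis-retinol. Lrat (chr3:82892579-82903973, - strand) encodes the acyltransferase that makes retinyl esters, its substrate. Rdh5 (chr10:128913593-128922888, - strand) encodes a dehydrogenase that oxidizes 11-cis-retinol. Rgr (chr14:37034909-37048964, - strand) and Rrh (chr3:129804408-129822587, - strand) encode opsins of the epithelium that bind all-trans-retinal, RGR and peropsin, and Rgr is also expressed by Müller glia. Ttr (chr18:20665280-20674321, + strand) encodes transthyretin, a carrier of retinol with its binding protein and of thyroxine, which the ciliary epithelium makes too. Best1 (chr19:9985174-10001633, - strand) encodes bestrophin 1, a chloride channel of the basolateral membrane. Of the genes of the melanosome, Pmel (chr10:128704195-128720238, + strand) encodes the protein of its fibrils, Tyrp1 (chr4:80834123-80851719, + strand) a melanin-making enzyme related to tyrosinase, and Mlana (chr19:29697824-29708634, + strand) a small membrane protein. Lrat lies wholly within Rbm46os on the opposite strand, Rdh5 shares 5007 bases with Bloc1s1 on its own strand, and Pmel shares 837 bases with Cdk2 and 105 bases with Dgka on the opposite strand. How the counting treated strand is not given in the sources used here, so these 3 levels are less certain than the others.

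Sequence upstream of the start was read for 7 of the 10 genes, from RefSeq on GRCm38.p6, and 3 motifs were looked for in the 250 bases before the start on both strands. The first was the palindromic E-box CACGTG. The next was a related E-box of the kind that MITF, the factor of pigment cells, also binds, CATGTG. The last, of the kind bound by OTX2 and CRX, homeodomain factors of the epithelium and of photoreceptors, was TAATCC. Rpe65 and Tyrp1 are shown because they stand for the visual cycle and the pigment genes in the results that follow. Capitals mark the E-box and the homeodomain motif, both of which are read on the other strand in Rpe65.

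Rpe65, chr3:159598931-159599180, + strand: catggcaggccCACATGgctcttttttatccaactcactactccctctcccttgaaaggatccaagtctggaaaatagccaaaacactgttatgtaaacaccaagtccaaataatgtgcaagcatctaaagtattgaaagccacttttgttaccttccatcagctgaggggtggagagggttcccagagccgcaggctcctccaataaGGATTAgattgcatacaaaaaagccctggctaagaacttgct

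Tyrp1, chr4:80833963-80834212, + strand: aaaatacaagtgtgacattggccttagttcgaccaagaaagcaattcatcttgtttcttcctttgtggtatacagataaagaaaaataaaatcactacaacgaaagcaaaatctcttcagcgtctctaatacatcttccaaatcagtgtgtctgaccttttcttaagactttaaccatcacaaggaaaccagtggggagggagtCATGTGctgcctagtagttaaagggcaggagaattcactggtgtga

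With the base before the RefSeq start counted as -1, the E-box of Rpe65 began at -239 and its homeodomain motif at -42, and the E-box of Tyrp1 began at -46. These starts differ in part from the gene positions given above. The Tyrp1 window runs to 80834212, past the gene start of 80834123, so that this E-box lies within the gene as placed above. The windows of Rrh, Rdh5 and Rpe65 also reach into their genes as placed above. TAATCC was also found in Rgr, at -167, and in Best1, at -227. None of the 3 motifs was found in these windows of Lrat, Rdh5 and Rrh. Of 32851 mouse promoters of this length, 12.3% held CATGTG, 6.02% held CACGTG and 6.25% held TAATCC. These matches are descriptions of the letters only.

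All 10 genes were detected in every retina, and they differed in how much they varied. In the 31 WT PBS retinas of day 2, batch 1, the median level per kilobase of exon was 23.2 CPM for Ttr, 22.3 for Tyrp1, 10.5 for Mlana and 8.63 for Pmel. It was 4.96 CPM per kilobase for Rgr, 3.16 for Rpe65, 3.06 for Rdh5, 2.79 for Rrh, 0.818 for Lrat and 0.387 for Best1. Neighbors in this order overlapped from retina to retina: Rpe65, for example, ran from 0.660 to 16.6 CPM per kilobase. Rrh was the steadiest of the 10, with a coefficient of variation of 12.6% in CPM, followed by Best1 with 23.8% and Rdh5 with 35.0%. The coefficients of the other 7 genes ran from 62.3% in Ttr to 97.6% in Pmel. Best1 was under 1 CPM in 51 of the 109 retinas.

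Single retinas showed the width of this spread. Rpe65 ran from 1.28 to 32.0 CPM among the 31 WT PBS retinas, with a median of 6.10, and Tyrp1 ran from 3.95 to 250 CPM, with a median of 63.0. Rrh, in contrast, stayed between 11.5 and 20.3 CPM, with a median of 16.5. The highest retina of the series for both Rpe65 and Tyrp1 was the WT PBS retina of mouse 61721 in batch 2, at 36.6 and 306 CPM. The TNF retina of mouse 59833 (day 2) had the highest Tyrp1 of the cytokine retinas, 177 CPM, with Rpe65 at 1.46 CPM, while the PBS retina of the same mouse had 163 and 19.7 CPM.

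**Figure D1:**
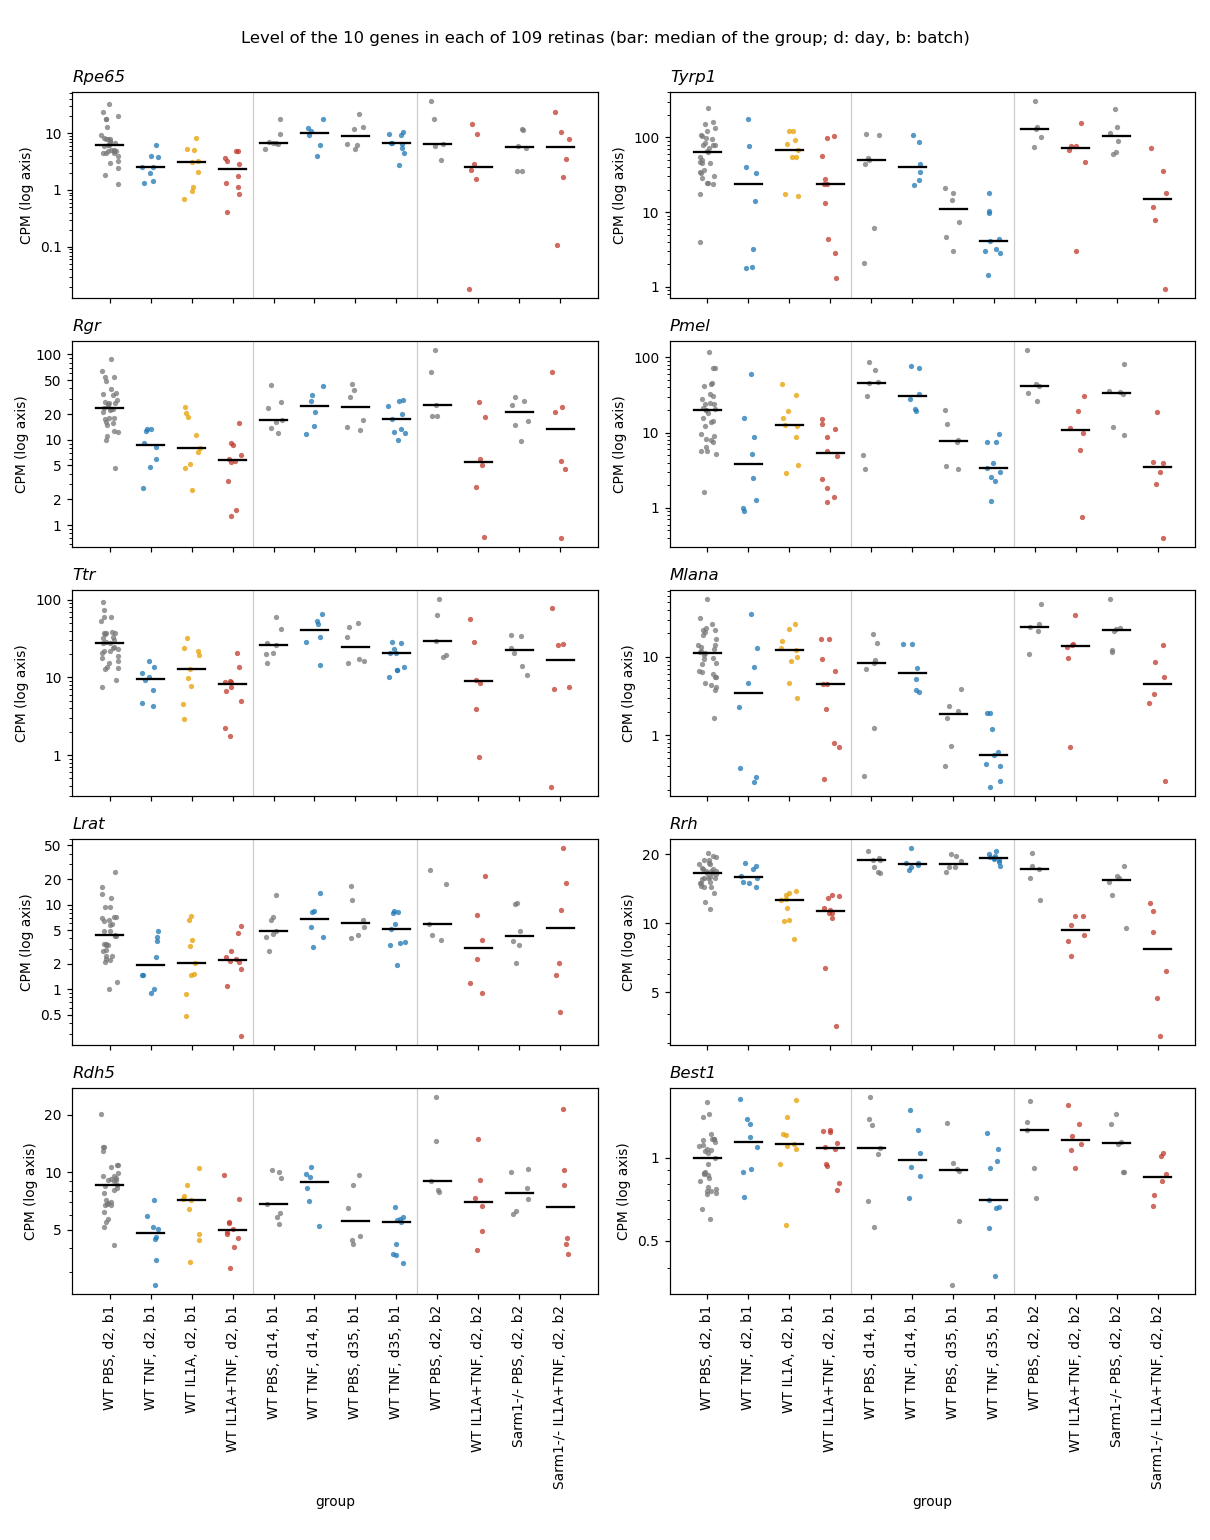
Level of each gene (CPM, log axis) in each of the 109 retinas, by group, with a bar at the group's median; d is the day after injection and b the batch. The visual cycle genes and Ttr are on the left and Tyrp1, Pmel, Mlana, Rrh and Best1 on the right; Rrh was between 11.5 and 20.3 CPM in WT PBS retinas of day 2, batch 1, where Tyrp1 ran from 3.95 to 250 CPM.

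The genes varied in 2 groups. Across the 31 WT PBS retinas of day 2, batch 1 (1 retina a mouse), Rpe65, Rgr, Ttr, Lrat and Rdh5 rose and fell together: over their 10 pairs, Pearson's r of log2 CPM was 0.850 to 0.969 and Spearman's rho 0.802 to 0.962. Tyrp1, Pmel and Mlana did the same over their 3 pairs, with r of 0.934 to 0.962 and rho of 0.922 to 0.976. All 13 pairs had an adjusted p of 3.46e-05 (permutation test, Benjamini-Hochberg over 45 pairs), which rests on the smallest p that 100000 permutations can give. Without the 2 retinas farthest from the median, r was 0.801 to 0.963 in the first group and 0.896 to 0.960 in the second. The division into these groups follows the genes' roles but was made with the values in view, and all pairs share library, depth and dissection.

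Between the groups the relation was looser. The 15 pairs of a visual cycle gene with a pigment gene had r of 0.266 to 0.618 and rho of 0.212 to 0.496, and 3 of them, Rdh5 with each of Tyrp1, Pmel and Mlana, were under an adjusted p of 0.05 by both measures in the permutation test. Rpe65 with Tyrp1 had the lowest r, 0.266 (rho 0.229, adjusted permutation p = 0.228). Rrh and Best1 stood outside both groups: their 17 pairs had r of -0.318 to 0.198, and none had an adjusted permutation p under 0.05. In the 10 other groups of 6 or more retinas, the median r among the visual cycle genes lay between 0.841 and 0.957. Its lowest single pair was at 0.161, in WT TNF retinas of day 2. The median r of a visual cycle gene with a pigment gene varied far more there, from 0.0571 in those TNF retinas to 0.851 in Sarm1-/- PBS retinas. It was 0.764 in WT IL1A+TNF retinas of batch 1, so the looser relation did not hold alike in every group.

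**Figure D2:**
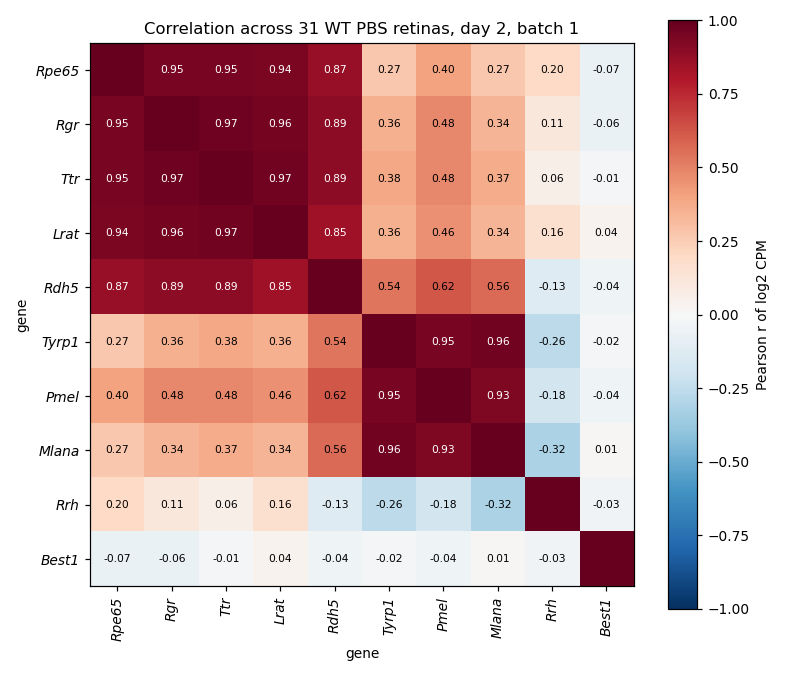
Pearson's r of log2 CPM between each pair of the 10 genes across the 31 WT PBS retinas of day 2, batch 1; color runs from -1 (blue) to 1 (red). The block of Rpe65, Rgr, Ttr, Lrat and Rdh5 has r of 0.850 to 0.969 and the block of Tyrp1, Pmel and Mlana 0.934 to 0.962, while the pairs of Rrh and Best1 have r of -0.318 to 0.198, the lowest being Rrh with Mlana.

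Markers of neighboring tissues moved with the 10 genes in these PBS retinas. The summed CPM of the 10 genes, on the log2 scale, had r of 0.876 (rho 0.883) with 12 other genes of the pigment epithelium, 0.844 (rho 0.838) with 10 other melanosome genes and 0.831 (rho 0.885) with 7 collagen and matrix genes of fibroblasts of choroid and sclera. It had r of 0.757 (rho 0.769) with 4 genes of melanocytes and 0.610 (rho 0.575) with 4 genes of the corneal epithelium. With genes of rods r was -0.142, with those of Müller glia 0.240, with lens genes -0.0667, with striated muscle -0.372 and with erythrocytes 0.0875. Set against the pigment genes and the visual cycle genes apart, r was 0.841 and 0.435 for the fibroblast genes, 0.962 and 0.360 for the other melanosome genes, 0.818 and 0.550 for the other pigment epithelium genes, 0.710 and 0.477 for melanocyte genes and 0.586 and 0.428 for corneal genes. The differences between these r were not tested. The 7 fibroblast genes summed to between 38.1 and 355 CPM in these 31 retinas. These correlations are descriptions over 31 retinas that share depth and dissection, and the part of adherent tissue in any result here was not tested.

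The genes outside the 10 whose levels were most like theirs were then ranked. By Spearman's rho with the mean of the 10 genes' z-scores over the 31 retinas, among 15035 genes, the first was Myrf (0.890), a membrane-bound transcription factor. It was followed by Cltrn (0.866), by Col8a2 (0.856), a collagen of basement membranes, by Slc6a20a (0.844), a proline transporter, and by Slc16a8 (0.838), the lactate transporter of the pigment epithelium. Car12, Cdh3, Tmem56, Cpxm2 and Sema3c completed the first 10, with rho of 0.802 to 0.820. Ranked against single genes, an order added with the values in view, Ermn (0.907) came first for Rpe65 and Dct (0.979), the melanin enzyme dopachrome tautomerase, for Tyrp1. Rrh had no match as close, its highest being Glb1l2 (0.753), and the highest for Best1 was Dolpp1 (0.616).

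Rrh was also set against the lists singly, a relation added with the values in view. Over the same retinas its r was 0.554 (rho 0.444) with the genes of Müller glia and 0.456 (rho 0.457) with those of rods, against -0.372 (rho -0.397) with the other genes of the pigment epithelium. The adjusted permutation p over 22 relations was 0.0246 for r and 0.138 for rho with Müller genes, and 0.111 and 0.138 with rod genes. Without the 2 retinas farthest from the median, r with Müller genes was 0.289, so that this relation rests on those retinas.

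The first comparison asked what the 2 cytokines together did in 2 days. In WT mice of batch 1, 9 of the 10 genes were lower in IL1A+TNF retinas than in PBS retinas, and only Best1 was not. Over all 19548 genes tested, 50.4% were called in either direction and 25.5% were called lower (limma, adjusted p under 0.05). The median log2 difference of the 10 genes was -1.51, against -0.02 for all genes.

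The opsin Rgr had the deepest drop. It lay between 1.27 and 15.6 CPM in the 10 IL1A+TNF retinas, with a median of 5.82, and between 4.72 and 88.2 CPM in the 31 PBS retinas, with a median of 23.7. The ranges overlapped, but none of the 10 was above the PBS median. The log2 fold change was -2.31 ± 0.42 (SE), a level 0.202 times that of PBS retinas, with an adjusted p of 5.29e-06 (limma). Ttr went from a median of 27.5 CPM (7.59 to 92.9) to 8.10 CPM (1.77 to 20.6), a log2 fold change of -2.04 ± 0.38 (limma, adjusted p = 9.61e-06), again with none of the 10 above the PBS median.

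The enzymes of the cycle fell less evenly. Rpe65 lay between 0.414 and 4.94 CPM, with a median of 2.31, against a PBS median of 6.10, and its log2 fold change was -1.78 ± 0.43 (limma, adjusted p = 0.000467). Lrat fell by 1.30 ± 0.40 on the log2 scale (limma, adjusted p = 0.00539), with 2 of 10 retinas above the PBS median, and Rdh5 by 0.72 ± 0.17 (adjusted p = 0.000329), with 1 of 10 above it. Rrh lay between 3.56 and 13.3 CPM, with a median of 11.3, against 11.5 to 20.3 CPM in PBS retinas, and no IL1A+TNF retina was above the PBS median of 16.5. Its fold change was small but had the smallest error, -0.69 ± 0.10 (limma, adjusted p = 7.69e-08).

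The pigment genes fell with wide errors. Pmel lay between 1.20 and 15.2 CPM with a median of 5.34, all 10 retinas being under the PBS median of 19.8, and had a log2 fold change of -1.78 ± 0.61 (limma, adjusted p = 0.0123). Tyrp1 had -1.52 ± 0.56 (adjusted p = 0.0195) and Mlana -1.50 ± 0.55 (adjusted p = 0.0196), and in each 2 of 10 retinas were above the PBS median. Best1 was between 0.763 and 1.26 CPM against 0.601 to 1.60 CPM in PBS retinas, a log2 difference of 0.10 ± 0.12 (limma, adjusted p = 0.528).

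Neighboring gene groups moved in part with them. Of 11 other pigment epithelium genes tested, 1 was higher and 3 were lower, Slc6a20a by a log2 fold change of -1.42, Slc16a8 by -0.76 and Ermn by -0.64. The sum of that list did not fall, at 147 to 291 CPM (median 204) against 94.3 to 280 CPM (median 161) in PBS retinas. Of 10 other melanosome genes, 4 were lower, Dct by -1.70, the anion channel gene Oca2 by -1.44, Gpr143 by -1.33 and Slc24a5 by -0.52. None of the 7 fibroblast genes was called, with a median of -0.29 and a sum between 44.9 and 128 CPM (median 69.2) against 38.1 to 355 CPM (median 86.1) in PBS retinas. Of 7 rod genes 6 were lower, with a median of -0.59. The genes of Müller glia summed to between 1554 and 3194 CPM (median 2616), against 2205 to 4192 CPM (median 3496) in PBS retinas. Of 10 visual cycle genes of photoreceptors and Müller glia, 6 were lower, among them Rlbp1 by -0.70, Rdh12 by -0.60 and Abca4 by -0.52, and Rdh10 (0.32) and Dhrs3 (0.15) were higher. Mc1r was lower and Ednrb higher among 4 melanocyte genes, 2 of the 3 corneal genes tested were lower, and no lens or erythrocyte gene was called. Over all retinas Ednrb reached 384 CPM, where Kit, Mc1r and Sox10 reached 12.5, 5.04 and 4.89 CPM. Whether the rise of Ednrb lay in melanocytes was not tested. The part of each list in the members' difference was not tested.

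The eyes of single mice gave the same directions. Of 8 mice with a PBS and an IL1A+TNF eye, all 8 had less Rgr, Ttr, Rrh and Rdh5 in the IL1A+TNF eye, and 7 had less Rpe65, Lrat and Pmel. The median log2 difference between the eyes was -2.28 for Rgr, -1.89 for Ttr, -0.56 for Rrh and -1.96 for Pmel. Tyrp1 was lower in 5 and Mlana in 6 of the 8 mice, and with mouse as a fixed replicate block neither passed the test (limma, adjusted p = 0.119 and 0.106), which left 7 genes called. The calls of Tyrp1 and Mlana were also lost without mouse 60587 (limma, adjusted p = 0.0718 and 0.0874) and without mouse 60782 (0.0545 and 0.0559), that of Tyrp1 in edgeR (0.0640), and that of Mlana with a term for left or right eye (0.0639).

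After IL1A alone, fewer of the genes were lower. Of the 10 genes 4 were called lower, Rgr, Rpe65, Ttr and Rrh, where 21.4% of all genes were called and 9.45% called lower. These comparisons share the 31 PBS retinas with the one before. The median log2 difference of the 10 genes was -0.45, against -0.01 for all genes.

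Rgr lay between 2.58 and 24.1 CPM in the 9 IL1A retinas, with a median of 8.11, and fell by 1.41 ± 0.37 on the log2 scale (limma, adjusted p = 0.0034). Rpe65 had -1.37 ± 0.43 (adjusted p = 0.0158), Ttr -1.18 ± 0.34 (adjusted p = 0.00869) and Rrh, at 8.55 to 13.8 CPM with a median of 12.7, -0.46 ± 0.10 (adjusted p = 0.000582). Lrat and Rdh5 pointed down without passing the test, at -1.08 ± 0.42 and -0.43 ± 0.17 (limma, adjusted p = 0.0541 and 0.0688), though Lrat was called in DESeq2 (adjusted p = 0.0439) and, in limma, with a filter at 1 CPM (0.0472). The pigment genes had values near 0 or with wide errors: Tyrp1 0.03 ± 0.49, Mlana 0.04 ± 0.43 and Pmel -0.44 ± 0.50. Of the lists, 0 of 10 melanosome genes and 0 of 7 fibroblast genes were called, and 6 of 7 rod genes were lower. Of the 11 other pigment epithelium genes 1 was higher and 1 was lower, Slc16a8 by a log2 fold change of -0.55. The sum of that list had a median of 172 CPM, against 161 CPM in PBS retinas.

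Within mice, all 7 with both eyes had less Rgr and Ttr in the IL1A eye, 6 had less Rpe65, Rrh, Lrat and Rdh5, and 2 had less Tyrp1. With mouse as a fixed replicate block 2 genes stayed called, and Rpe65 (limma, adjusted p = 0.0542) and Rrh (0.0538) did not. Rpe65 and Ttr were not called without mouse 60216 (limma, adjusted p = 0.069 and 0.0653). Leaving out 1 mouse brought Lrat past the threshold in 7 of 33 fits and Rdh5 in 3, both of them without mouse 60217, 60584 or 60640.

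After TNF alone few genes were called, 0.655% of those tested, and 3 of the 10 genes were among them, all lower: Rgr, Ttr and Rdh5. Only 8 genes in all, 0.0409%, were lower after TNF. The 3 are joined there by Slc16a8 (-0.82 ± 0.18) and Slc6a20a (-1.52 ± 0.38) of the other pigment epithelium genes, and by Gpx3 (-1.91 ± 0.40), a secreted glutathione peroxidase, Serpine3 (-1.15 ± 0.27) and Ptgds (-1.19 ± 0.31), a prostaglandin D synthase. Gpx3, Serpine3 and Ptgds are in none of the lists and are named because the count is small.

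Rgr lay between 2.69 and 13.5 CPM in the 8 TNF retinas, with a median of 8.75, all under the PBS median of 23.7, and its log2 fold change was -1.63 ± 0.42 (limma, adjusted p = 0.048). Ttr lay between 4.23 and 16.0 CPM and had -1.61 ± 0.41 (adjusted p = 0.0392). Rdh5 lay between 2.58 and 7.13 CPM, against 4.18 to 20.1 CPM in PBS retinas, and had -0.87 ± 0.20 (adjusted p = 0.0197). The pigment genes had values as low but with wider errors, Mlana -1.85 ± 0.70, Pmel -1.78 ± 0.72 and Tyrp1 -1.62 ± 0.66 (limma, adjusted p = 0.371, 0.438 and 0.439). Rpe65 had -1.31 ± 0.46 and Lrat -1.19 ± 0.46 (adjusted p = 0.289 and 0.384). Rrh, at 14.3 to 18.3 CPM, differed by -0.02 ± 0.10, and Best1 by 0.19 ± 0.14. The median log2 difference of the 10 was -1.46, against 0.00 for all genes, and 8 of the 10 had an unadjusted p under 0.05, as did 7.66% of all genes.

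All 8 mice with both eyes had less Rgr, Ttr, Rpe65 and Pmel in the TNF eye, with median log2 differences of -1.18, -1.38, -0.89 and -1.66. No rod gene, fibroblast gene or melanosome gene of the lists was called, with list medians of 0.01, -0.58 and -0.98. The summed fibroblast genes had a median of 86.4 CPM, against 86.1 CPM in PBS retinas. The sum of the other pigment epithelium genes ran from 63.7 to 225 CPM (median 128), against 94.3 to 280 CPM (median 161) in PBS retinas. The calls of Rgr and Ttr were near the threshold. With no filter on low counts, with no sex term and with no replicate block only 1 of the 10 genes, Rdh5, was called. With mouse as a fixed replicate block none was (limma, adjusted p = 0.375, 0.308 and 0.434 for Rgr, Ttr and Rdh5). The call of Rgr was also lost with a term for left or right eye (limma, adjusted p = 0.054), and DESeq2 called Rpe65 too (-1.48, adjusted p = 0.0234). Of 31 fits that each left out 1 mouse, Rgr was not called in 16, Ttr in 8 and Rdh5 in 4, and none of the 3 was called without mouse 59733, 60033, 60213 or 60585.

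**Figure D3:**
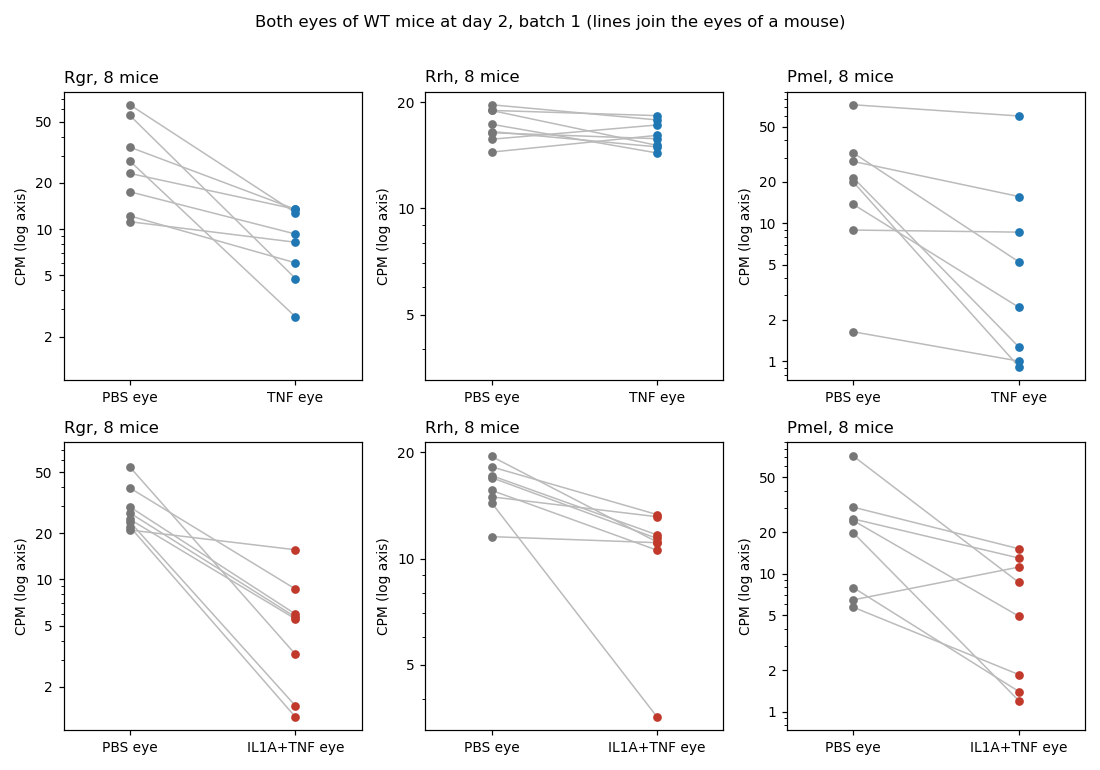
CPM (log axis) of Rgr, Rrh and Pmel in the PBS eye and the cytokine eye of the same WT mouse at day 2, batch 1, with a line for each of 8 mice given TNF (top) and 8 given IL1A+TNF (bottom). Rgr falls in all 8 mice under either treatment, and Rrh in all 8 under IL1A+TNF and in 6 under TNF.

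When IL1A+TNF retinas were set against IL1A retinas, all 10 log2 differences were below 0 and none was called by limma, edgeR or DESeq2, where 10.1% of all genes were called by limma. At an unadjusted p under 0.05 there were 2, Tyrp1 (-1.54 ± 0.67, adjusted p = 0.13) and Mlana (-1.54 ± 0.63, adjusted p = 0.111), where 24.4% of all genes were under that p. Rgr differed by -0.90 ± 0.53, Ttr by -0.86 ± 0.48 and Rpe65 by -0.41 ± 0.57. The median of the 10 was -0.64, against -0.01 for all genes. IL1A and TNF alone were not set against each other.

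**Figure D4:**
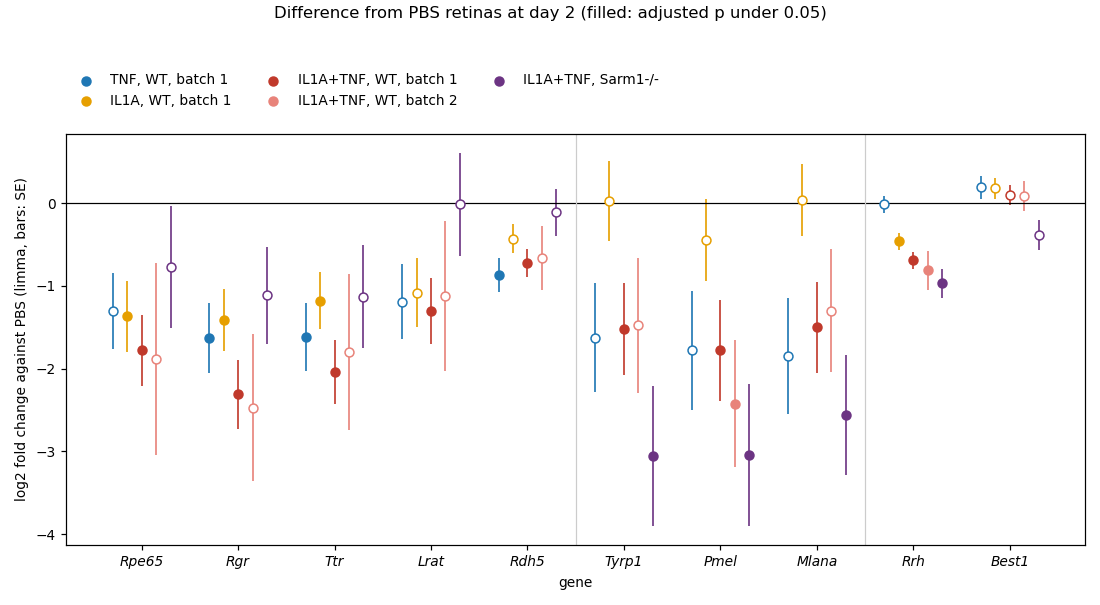
Log2 fold change of each gene against PBS retinas at day 2 (limma, bars are SE) for TNF, IL1A and IL1A+TNF in WT retinas of batch 1, IL1A+TNF in WT retinas of batch 2 and IL1A+TNF in Sarm1-/- retinas; filled points have an adjusted p under 0.05. Tyrp1 and Mlana are near 0 after IL1A (0.03 and 0.04) and lowest in Sarm1-/- retinas (-3.05 and -2.56), and Best1 has no filled point.

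Some levels were shared by the eyes of a mouse. Over 23 WT mice of day 2, batch 1, with a PBS and a cytokine eye, the deviation of each eye from its group's mean was compared. For Pmel r was 0.584 and rho 0.587 (adjusted permutation p over 10 genes 0.0197 and 0.0192), and for Tyrp1 0.568 and 0.603. For Mlana r was 0.492 and rho 0.464, with adjusted permutation p of 0.0576 and 0.0896. The other 7 genes had r from -0.120 (Best1) to 0.363 (Lrat). Without the 2 mice farthest from the median, r fell to 0.404 for Pmel and 0.379 for Tyrp1, and in the 11 mice of batch 2 no gene had an adjusted permutation p under 0.05.

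TNF was followed to day 14 and day 35. At day 14 none of the 10 genes was called, nor was any other gene (0%, limma), and none of the 10 was under an unadjusted p of 0.05. The log2 differences ran from -0.04 in Best1 to 0.60 ± 0.68 in Tyrp1, and Rgr, called at day 2, had 0.12 ± 0.24, at 11.6 to 42.1 CPM against 12.1 to 44.2 CPM in PBS retinas. EdgeR and DESeq2 called none of the 10 either. With mouse as a fixed replicate block the differences of Tyrp1, Pmel and Mlana turned, to -0.17, -0.23 and -0.28, and of the 4 mice with both eyes 3 had less Tyrp1 and Mlana in the TNF eye.

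At day 35 again no gene was called (0%, limma), and edgeR and DESeq2 called none of the 10, but 9 of the 10 differences were below 0. At an unadjusted p under 0.05 there were 4, Mlana (-1.24 ± 0.50), Tyrp1 (-1.02 ± 0.47), Pmel (-0.98 ± 0.40) and Ttr (-0.56 ± 0.26), each with an adjusted p of 0.889, where 4.89% of all genes were under that p. Mlana lay between 0.218 and 1.94 CPM in the 9 TNF retinas and between 0.401 and 3.91 CPM in the 6 PBS retinas. All 6 mice with both eyes had less Mlana, Rgr, Ttr and Lrat in the TNF eye, by a median log2 difference of -1.91 for Mlana.

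The PBS retinas of batch 1 differed between days. From day 2 to day 14 none of the 10 genes was called by limma, edgeR or DESeq2, where limma called 19.2% of all genes. Only 1, Rrh (0.19 ± 0.07, adjusted p = 0.0546), had an unadjusted p under 0.05, as did 31.6% of all genes. Rrh passed the threshold in 11 of 37 fits that left out 1 mouse. From day 2 to day 35, Tyrp1 and Mlana were lower and Rrh was higher, where 32.8% of all genes were called, 17.4% lower and 15.4% higher.

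Tyrp1 lay between 3.04 and 21.3 CPM in the 6 PBS retinas of day 35, with a median of 11.1, against a median of 63.0 CPM at day 2, and its log2 fold change was -2.56 ± 0.83 (limma, adjusted p = 0.0138). Mlana lay between 0.401 and 3.91 CPM, with a median of 1.86 against 11.1, and had -2.83 ± 0.93 (adjusted p = 0.0153). Pmel had -1.19 ± 0.77 (adjusted p = 0.255), and was called by DESeq2 (-1.42, adjusted p = 0.0311). The visual cycle genes did not go with them: Rpe65 had 0.48 ± 0.35, Lrat 0.55 ± 0.35, Rgr -0.05 ± 0.34 and Ttr -0.06 ± 0.33, and only Rdh5, at -0.51 ± 0.21 (limma, adjusted p = 0.0634), pointed down, passing the threshold in 5 of 37 fits that left out 1 mouse. The sum of Rpe65, Rgr, Ttr, Lrat and Rdh5 had a median of 68.9 CPM at day 35 and 68.3 CPM at day 2, while that of Tyrp1, Pmel and Mlana had 22.4 and 90.7 CPM. Rrh rose by 0.19 ± 0.07 (adjusted p = 0.0462), a call lost with no filter, with a stricter filter, in edgeR, in DESeq2 and with a term for the side of the eye (adjusted p of 0.0511 to 0.0662), and in 19 of 37 fits that left out 1 mouse.

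The lists of neighboring tissues moved with the pigment genes here. At day 35, 9 of 10 other melanosome genes were lower (median -1.70), 5 of 7 fibroblast genes were lower (median -2.30), and 7 of 11 other pigment epithelium genes were lower (median -0.84). Fibroblast genes summed to between 9.84 and 36.8 CPM at day 35, below the lowest PBS retina of day 2 (38.1 CPM). Of 7 rod genes 6 were higher (median 0.31). Both eyes of mouse 59710 are among the PBS retinas of day 14 and were taken as independent. Retinas of different days came from different mice, so day and mouse cannot be told apart, and the part of adherent tissue was not tested.

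**Figure D5:**
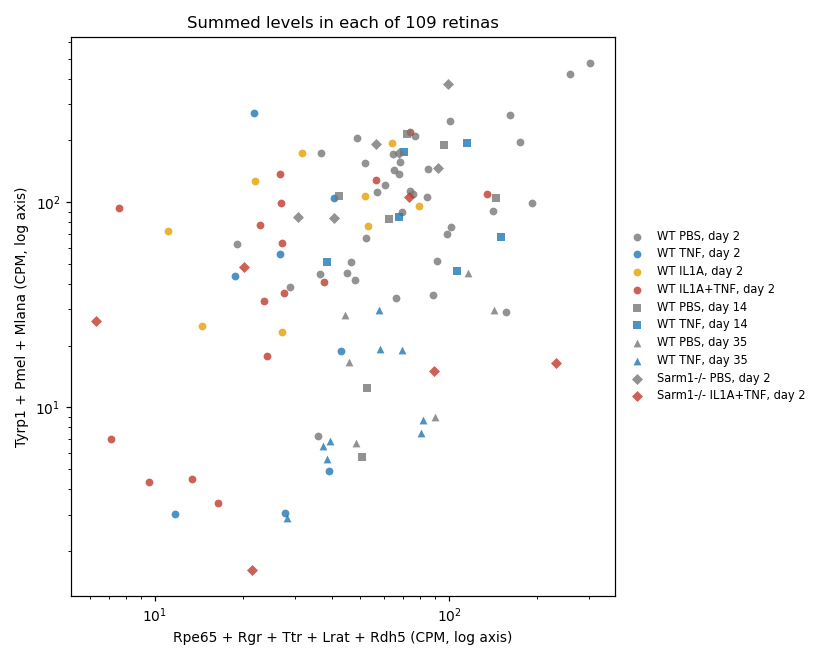
Summed CPM of Tyrp1, Pmel and Mlana against that of Rpe65, Rgr, Ttr, Lrat and Rdh5 in each of the 109 retinas (both axes log), with color for treatment and shape for day and genotype. PBS retinas of day 35 (gray triangles) have a median of 22.4 CPM on the vertical axis against 90.7 CPM at day 2, with like values on the horizontal axis, where the medians are 68.9 and 68.3 CPM. WT IL1A+TNF retinas (red circles) have horizontal medians of 23.8 CPM in batch 1 and 27.0 CPM in batch 2. Their vertical medians are 34.5 and 96.3 CPM. The day 2 PBS medians given above are of batch 1. WT PBS retinas of batch 2 have medians of 76.5 CPM on the horizontal and 197 CPM on the vertical axis.

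Batch 2 repeated IL1A+TNF in WT mice with fewer retinas. Here 2 of the 10 genes were called lower, Rrh and Pmel, where 20.9% of all genes were called and 7.55% called lower, and 9 of 10 differences were below 0. The median of the 10 was -1.39, against -0.02 for all genes.

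Rrh was 15.7, 17.8, 17.2, 20.3 and 12.6 CPM in the 5 WT PBS retinas and between 7.18 and 10.8 CPM in the 6 WT IL1A+TNF retinas. Its log2 fold change was -0.81 ± 0.24 (limma, adjusted p = 0.0202). Pmel was 43.6, 125, 25.9, 42.0 and 33.7 CPM in the PBS retinas and between 0.751 and 30.8 CPM, with a median of 10.7, after IL1A+TNF, a log2 fold change of -2.42 ± 0.77 (adjusted p = 0.029). Only 1 PBS retina was below the highest IL1A+TNF retina. Rgr had the lowest log2 fold change, -2.47 ± 0.89, without passing the test (limma, adjusted p = 0.0525). It was called with no sex term (0.044), with no replicate block (0.0417), with a term for the side of the eye (0.00796), in edgeR (0.021) and in DESeq2 (0.00276). Its PBS retinas had 25.9, 113, 19.1, 61.5 and 18.9 CPM against 0.733 to 27.6 CPM. Rpe65 was 6.47, 36.6, 6.01, 17.5 and 3.31 CPM against 0.0183 to 14.7 CPM (-1.88 ± 1.16, adjusted p = 0.259).

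All 5 mice with both eyes had less Rpe65, Rgr, Rrh, Ttr, Lrat, Rdh5 and Pmel in the IL1A+TNF eye. Right eyes made up 4 of the 6 WT IL1A+TNF retinas and 1 of the 5 WT PBS retinas. With mouse as a fixed replicate block 5 genes were called, Rgr (limma, adjusted p = 0.0203), Lrat (0.0479) and Rdh5 (0.0429) being added. In the fit with the mouse as random block, none was called without mouse 61721 (limma, adjusted p = 0.0832 for Rrh and 0.0683 for Pmel). The PBS retina of this mouse was the highest of the WT PBS group for Pmel (125 CPM) but not for Rrh (17.8 CPM), and its IL1A+TNF retina had the lowest Rrh of its group (7.18 CPM). The call of Rrh was also lost without mouse 61720 (0.0601) or 61927 (0.0527), and that of Pmel without mouse 62224 (0.0757) and in edgeR (-2.12, adjusted p = 0.0634). Of the lists, 6 of 7 rod genes were lower (median -0.49), as were 1 of 10 melanosome genes and none of the 7 fibroblast genes, and of the 11 other pigment epithelium genes 1 was higher and none lower (median -0.62). The sum of the other pigment epithelium genes ran from 178 to 344 CPM (median 241), against 136 to 289 CPM (median 194) in WT PBS retinas.

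The last comparisons asked what the loss of Sarm1 changed. In PBS retinas of day 2 none of the 10 genes differed between Sarm1-/- and WT by limma, edgeR or DESeq2, where limma called 0.0397% of all genes. Only 1, Rdh5 (-0.60 ± 0.26), had an unadjusted p under 0.05, as did 4.88% of all genes. Of the 10 differences 9 were below 0, down to -0.92 ± 0.50 in Rgr.

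After IL1A+TNF, 4 of the 10 genes were lower in Sarm1-/- retinas, Rrh, Tyrp1, Pmel and Mlana, where 43.5% of all genes were called and 22.2% called lower. Tyrp1 lay between 0.949 and 72.8 CPM in the 6 Sarm1-/- IL1A+TNF retinas, with a median of 14.8, and between 60.5 and 240 CPM in the 6 Sarm1-/- PBS retinas, with a median of 103, so 1 treated retina lay within the PBS range. Its log2 fold change was -3.05 ± 0.85 (limma, adjusted p = 0.00221). Pmel had -3.04 ± 0.86 (adjusted p = 0.00261) and Mlana -2.56 ± 0.72 (adjusted p = 0.00267), and Rrh, at 3.23 to 12.2 CPM against 9.56 to 17.8 CPM, had -0.97 ± 0.18 (adjusted p = 1.01e-05).

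The visual cycle genes were spread widely in these retinas. Rpe65 ran from 0.107 to 23.7 CPM after IL1A+TNF, with a median of 5.63, against 2.14 to 12.1 CPM with a median of 5.70 in Sarm1-/- PBS retinas, and its log2 difference was -0.77 ± 0.74 (limma, adjusted p = 0.425). Rgr had -1.11 ± 0.59, Ttr -1.13 ± 0.62 (0.06 in edgeR and in DESeq2, and called only without mouse 61926, at an adjusted p of 0.0485 in limma), Rdh5 -0.11 ± 0.28 and Lrat -0.02 ± 0.62. The highest Rpe65, 23.7 CPM, was in the retina of mouse 61926, with Tyrp1 at 11.7 CPM, and the lowest, 0.107 CPM, in that of mouse 61765, with Rgr at 0.713 and Ttr at 0.392 CPM. Across the 6 retinas the median r between a visual cycle gene and a pigment gene was 0.0793, against 0.851 in the Sarm1-/- PBS retinas.

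Of the 6 Sarm1-/- mice with both eyes, all 6 had less Rrh, Best1, Tyrp1, Pmel and Mlana in the IL1A+TNF eye, while 4 had less Rgr and Ttr and 3 less Rpe65 and Lrat. With mouse as a fixed replicate block, which rests on these 6 mice, none of the 10 was called (limma, adjusted p of 0.133 to 0.147 for the 4 genes). Other melanosome genes moved with them, 9 of 10 being lower (median -1.70), as did 4 of 7 fibroblast genes (median -1.24), with sums of 22.4 to 218 CPM against 130 to 305 CPM in Sarm1-/- PBS retinas, and 5 of 7 rod genes (median -0.49) and 4 of 6 Müller genes were lower. Of the 5 erythrocyte genes 3 were higher (median 0.87), with sums of 19.7 to 94.7 CPM against 15.5 to 32.8 CPM, and of the 11 other pigment epithelium genes 2 were higher, among them Krt18 (0.42), and 2 lower, Mfrp (-1.67) and Cldn19 (-1.17). The sum of the other pigment epithelium genes ran from 137 to 432 CPM (median 224), against 150 to 214 CPM (median 174) in Sarm1-/- PBS retinas. The part of these lists in the result was not tested.

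Between Sarm1-/- and WT retinas after IL1A+TNF, 1 of the 10 genes was called, Best1, where 14.8% of all genes were called and 10.8% called lower. In batch 2 Best1 lay between 0.669 and 1.04 CPM in Sarm1-/- retinas and between 0.916 and 1.55 CPM in WT retinas, and its log2 difference was -0.47 ± 0.17 (limma, adjusted p = 0.0472). The call was lost with no filter (0.0691), in edgeR (0.0813), in batch 2 alone (0.215), with a term for the side of the eye (0.0725) and in 8 of 22 fits that left out 1 mouse (adjusted p of 0.0508 to 0.205 in limma), namely mice 61720, 61722, 61765, 61924, 61926, 61927, 62221 and 62224. Tyrp1 differed by -1.88 ± 0.85 (adjusted p = 0.126, and 0.0468 without mouse 61720, whose WT retina was at 3.04 CPM), Rrh by -0.40 ± 0.17 (0.107, and 0.02 to 0.0312 without mouse 60212, 61561 or 62221), Pmel by -1.72 ± 0.90 and Mlana by -1.50 ± 0.76, and Rpe65 by 0.33 ± 0.73.

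The difference between the responses of the genotypes was tested itself. None of the 10 genes was called by limma or edgeR, where limma called 8.75% of all genes. Only 1, Best1 (-0.48 ± 0.21, adjusted p = 0.133), had an unadjusted p under 0.05, as did 22.8% of all genes. DESeq2 called Lrat (2.36, adjusted p = 0.04995). The visual cycle genes had values above 0, Rgr 1.29 ± 0.70, Lrat 1.24 ± 0.75 and Rpe65 1.14 ± 0.88, and the pigment genes below it, Tyrp1 -1.55 ± 0.96, Mlana -1.19 ± 0.83 and Pmel -0.95 ± 0.95. Leaving out mouse 61765 alone brought 4 genes past the threshold, Rpe65 (2.50), Rgr (2.25), Ttr (2.06) and Lrat (2.28), with adjusted p of 0.032, 0.0209, 0.0304 and 0.0315 in limma.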

How the data were processed

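Gene counts of 109 retinas were used as deposited. The authors aligned read pairs to the mouse genome (mm10) with STAR 2.7.9a and summed counts per gene with featureCounts of Subread 2.0.1, so that the deposited values are raw counts, not normalized. The annotation release and the strand setting of the counting are not given in the sources used here. Symbols and positions were taken by Ensembl identifier from GENCODE M21 (GRCm38), which named 35449 of the 37315 genes. Of all genes, 5937 were at 0 in every retina. Groups and mice were taken from the labels. The labels' protocol names day 2 only, and the day given for each retina was used.

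Levels are CPM with TMM scaling (edgeR 4.0.16), and log2 CPM carries a prior count of 2. Differences were tested with limma 3.58.1 in R 4.3.3: filterByExpr (minimum count 10, minimum total 15), TMM, voom with sex as covariate, and 2 rounds of duplicateCorrelation (statmod 1.5.0) with the mouse as random block. TMM, voom, the block and the sex term follow the study's methods, while the filter and the number of rounds were chosen here. P-values were adjusted by Benjamini-Hochberg over all genes tested, and a gene was called at an adjusted p under 0.05. The 4 WT groups of day 2, batch 1, were fitted together (58 retinas, 35 mice), day 14 (13 retinas) and day 35 (15 retinas) singly, the WT PBS retinas of batch 1 together without a block (44 retinas, with both eyes of mouse 59710 taken as independent), and batch 2 alone (23 retinas) for WT. Comparisons with Sarm1-/- retinas used all 81 retinas of day 2 with a batch term, since each batch holds WT retinas. Fits without a mouse kept the block correlation of the full fit. All 10 genes passed the filter in every comparison.

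The pairing of eyes comes from the mouse numbers in the sample names, since both eyes of a mouse carry the same number. The consensus correlation between eyes over all genes was 0.0515 at day 2, 0.284 at day 14, 0.0794 at day 35, -0.0763 in batch 2 and 0.00525 in the fit of both batches. P-values measure the spread between these retinas and mice.

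The genes named are the 10 genes, the members of the marker lists where their count is given, and the 10 genes most like their mean z-score. The 10 genes and the lists were chosen with earlier results of these data known, and the lists come from general knowledge. Rlbp1 is in 2 lists, Rdh10 is also expressed by Müller glia, and Gpnmb by macrophages. Some single genes of the lists are not reported here. No identical pair of libraries was found, and the scripts were tested on simulated data. Correlations used 100000 permutations (SciPy 1.17.1). DESeq2 1.42.0 and edgeR's quasi-likelihood test were alternatives.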

Additional observations from a re-analysis of the deposited data

Results flagged for a closer look

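Dixon's test was run in the groups of 4 to 10 retinas on log2 CPM, 110 tests over the 10 genes, and chance alone gives a result past its 95% limit in about 1 group in 20. It singled out 3 values. In the WT IL1A+TNF group of batch 2, the right retina of mouse 61720 was far below the others for Tyrp1 (3.04 CPM, the next being 47.4 CPM, ratio 0.696 against a limit of 0.625) and for Mlana (0.693 CPM, the next being 9.75 CPM, ratio 0.675). In the WT TNF group of day 14, the right retina of mouse 60032 was above the others for Rrh (21.3 CPM, the next being 18.3 CPM, ratio 0.691).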

How the results depend on the processing

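With mouse as a fixed replicate block, the number of the 10 genes called was 2 after IL1A, 0 after TNF at day 2, 5 after IL1A+TNF in WT retinas of batch 2 and 0 in Sarm1-/- retinas, and the block changed no other call than those given beside the results. The contrasts of IL1A+TNF with IL1A and of Sarm1-/- with WT retinas lie between mice, and the fixed block could not be fitted. After TNF at day 2, 1 gene was called with no filter, with no sex term and with no replicate block. From day 2 to day 14 in PBS retinas, 1 was called with DESeq2's size factors. Between Sarm1-/- and WT retinas after IL1A+TNF, 0 were called with no filter, in edgeR, in batch 2 alone and with a term for the side of the eye, which was added after seeing the data. For genotype by treatment, DESeq2 called 1. Leaving out each mouse in turn gave 2 to 6 genes after IL1A, 0 to 3 after TNF at day 2, 0 to 1 for PBS day 14, 0 to 2 in WT retinas of batch 2, 0 to 2 between Sarm1-/- and WT after IL1A+TNF and 0 to 4 for genotype by treatment. The causes were not tested. In Sarm1-/- retinas, the difference after IL1A+TNF of Rpe65 was 0.31 in edgeR and 0.08 with the fixed block, and that of Lrat 1.12 and 0.83, against -0.77 and -0.02 as given, and that of Ttr was 0.06 in edgeR and DESeq2. At day 14 the differences of Tyrp1, Pmel and Mlana turned below 0 with the fixed block, and that of Lrat in DESeq2 (-0.07). Best1 had the lowest median level of the 10 genes (1.04 CPM over all retinas) and was under 1 CPM in 51 retinas. The lowest single level was that of Rpe65 (0.0183 CPM), and the effect of depth was not tested.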
